A study of Mus musculus with 4 samples.

Results

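Lipid droplets store neutral lipid, and the release and mitochondrial oxidation of that lipid were followed here through 10 genes: Cidea, Plin2, Pnpla2, Lpl, Acsl1, Cpt1a, Cpt2, Acadl, Acadm and Hadha. The genes were taken by symbol from a table of 21470 mouse genes, and all 10 had a row and passed the filter on low counts, which left 6943 genes. They were chosen with earlier results of these data known, so the shares of called genes below are descriptions. RNA came from wild-type (WT) embryos of a B6D2F1 male and an ICR female, dissected into an embryonic side (inner cell mass, ICM) and an extra-embryonic side (trophectoderm, TE, the outer layer that forms placental tissue) at 2 times labelled E4 and D10. Each of the 4 groups, E4 ICM, E4 TE, D10 ICM and D10 TE, held 5 barcoded libraries that were mixed before amplification, so that the amplification pool and the group cannot be told apart. The sources differ on what the times mean: the protocol speaks of diapause embryos for every sample, the title of a time before and after diapause (the reversible arrest of the blastocyst before implantation), and the barcode list that came with the counts puts E4 before it and D10 at day 6. The number of embryos behind each library was not given, and all p-values below therefore describe variation among the 20 libraries.

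Neutral lipid sits in droplets coated by proteins such as perilipin 2 (Plin2), and Cidea is a droplet protein that moves lipid between touching droplets and is best known from brown fat. Adipose triglyceride lipase, encoded by Pnpla2, starts the breakdown of stored triacylglycerol, while lipoprotein lipase (Lpl) releases fatty acids from lipoproteins outside the cell. Acsl1 activates fatty acids to acyl-CoA, Cpt1a and Cpt2 pass the acyl group through the mitochondrial membranes as carnitine ester, and Acadl, Acadm and Hadha act in the cycle that shortens it. Oocytes and early embryos hold lipid droplets and can burn fatty acids.

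Total counts per library ran from 144276 to 1010354. Values below are CPM, read counts relative to library size with TMM factors, and a count of 0 allows up to 3 counts, which is 2.99 CPM in the deepest library and 20.69 CPM in the shallowest. Libraries read 3′ ends, and no level was compared between genes. The summed CPM of 11 epiblast markers ran from 1861 to 3233 in E4 ICM libraries and from 99.9 to 182 in E4 TE libraries, and from 1063 to 1326 against 74.4 to 152 at D10. The sum of 15 trophectoderm markers ran from 8211 to 9836 in the E4 TE and from 2262 to 3270 in the E4 ICM, and from 8476 to 11220 against 3590 to 6100 at D10. The tissue labels thus followed their markers, and the ICM libraries also had counts of trophectoderm markers, whose source was not tested. The sum of 13 primitive endoderm markers (the ICM lineage that forms yolk sac) ran from 1952 to 4577 in the E4 ICM and from 8039 to 10960 in the D10 ICM, and in the TE it reached 1440 and 3778. All 11 epiblast and all 13 primitive endoderm markers had counts in both ICM groups. Of 6 adipocyte markers 1 had a row, with 0 counts in every group. In bulk samples, fewer cells of a type and less RNA per cell cannot be told apart.

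Between E4 and D10, the lipase gene Pnpla2 and the acyl-CoA synthetase gene Acsl1 rose in both tissues, by between 3.98-fold and 5.7-fold. Cpt1a, whose enzyme controls entry of long-chain fatty acids into mitochondria, fell in both. Acadm, the medium-chain acyl-CoA dehydrogenase, rose in the TE, and Hadha, a subunit of the mitochondrial trifunctional protein, fell in the ICM. In the ICM 2 of 10 genes were called higher, where 13.7% of all genes tested were, and 2 lower, where 9.97% of all genes were. In the TE 3 of 10 were higher, beside 11.9% of all genes, and 1 was lower, beside 9.89%. The median log2 difference of the 10 genes was -0.07 in the ICM and 0.33 in the TE, and that of all genes tested was -0.00306 and 0.0206. With every library thinned to 144276 counts, the calls of Acsl1 and Cpt1a in the ICM (adjusted p = 0.0878 and 0.0515) and of Acadm in the TE (0.139) were lost, the highest values over all alternatives. The ICM changes stand beside higher sums of primitive endoderm and trophectoderm markers and a lower sum of epiblast markers at D10, none overlapping with E4 as given above. Of 12 primitive endoderm markers tested in the ICM, 7 were called higher at D10 and 1, Gata6, lower. Of 13 trophectoderm markers 6 were higher and 1, Tfap2a, lower. Of 11 epiblast markers 0 were higher and 7 lower. These stand beside 13.7% higher and 9.97% lower of all genes. The TE changes stand beside a higher sum of primitive endoderm markers, 1029 to 1440 CPM at E4 and 2585 to 3778 CPM at D10. Of 12 such markers tested, 2 were called higher at D10 in the TE, Lama1 and Dab2, and 0 lower. Their median log2 difference over time in the TE was 1.01. Dab2 was also the 1 marker of the 12 whose E4 call favoured the TE, where 11 favoured the ICM. The part of these shifts of marker sums in the changes of the 10 genes was not tested.

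**Figure D1:**
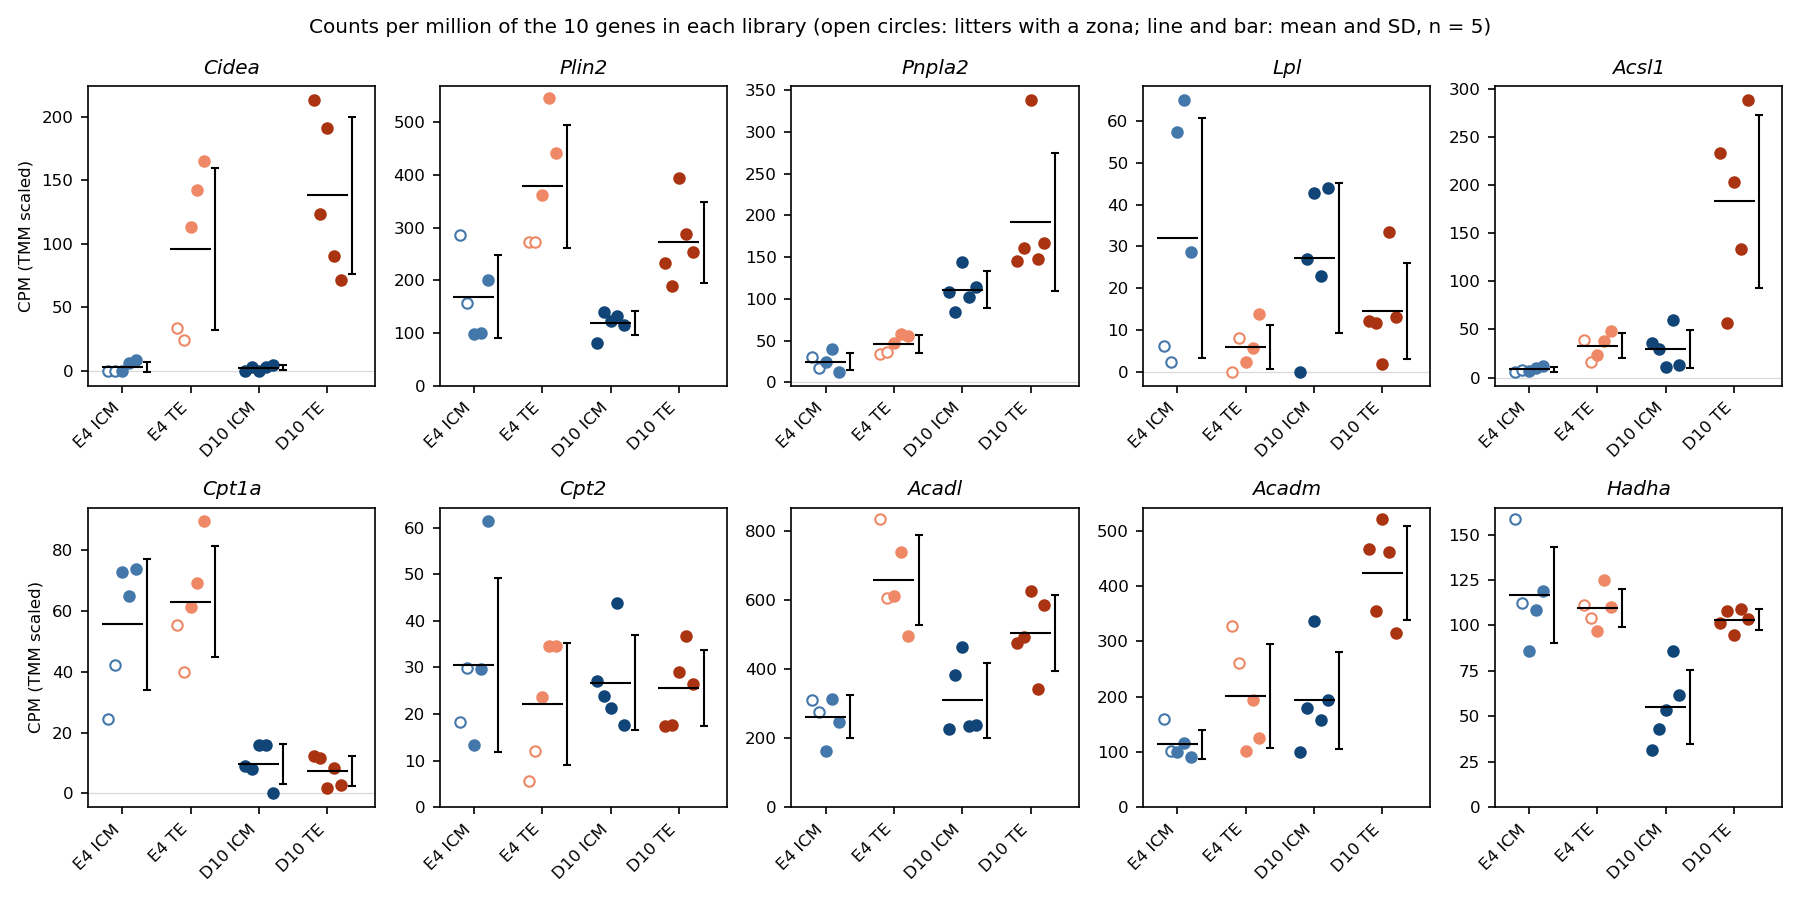
CPM of each of the 10 genes (vertical axis, linear) in every library of the 4 groups (horizontal axis); open circles are litters that had a zona pellucida, and the line and bar give the mean and SD (n = 5). Pnpla2 is higher in all D10 libraries than in any E4 library, Cpt1a is lower in all of them, and Cidea is near 0 in the ICM at both times.

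The regions before the start sites of the 4 genes called between E4 and D10 in the TE are shown because these genes moved in 2 directions at the same time. Each is the stretch of 250 bases that ends before the start site in RefSeq's table on GRCm38.p6, printed 5′ to 3′ on the gene's strand. Capitals mark matches on either strand to AGGTCA, the core element bound by many nuclear receptors, to CACGTG, an E-box, and to GGGCGG, a GC box. They lie at chr7:141454938-141455187 on the plus strand (Pnpla2), chr8:46470787-46471036 on the plus strand (Acsl1, the upstream of its 2 starts), chr3:153944644-153944893 on the minus strand (Acadm) and chr19:3323051-3323300 on the plus strand (Cpt1a). The Cpt1a stretch lies inside the gene as annotated in GENCODE M21, which starts upstream of it at chr19:3322334.
Pnpla2: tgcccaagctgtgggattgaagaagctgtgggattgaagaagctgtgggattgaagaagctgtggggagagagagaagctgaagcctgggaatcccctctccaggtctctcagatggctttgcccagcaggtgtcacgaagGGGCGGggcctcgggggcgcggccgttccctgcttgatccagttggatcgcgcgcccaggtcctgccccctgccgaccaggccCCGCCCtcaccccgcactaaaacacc
Acsl1: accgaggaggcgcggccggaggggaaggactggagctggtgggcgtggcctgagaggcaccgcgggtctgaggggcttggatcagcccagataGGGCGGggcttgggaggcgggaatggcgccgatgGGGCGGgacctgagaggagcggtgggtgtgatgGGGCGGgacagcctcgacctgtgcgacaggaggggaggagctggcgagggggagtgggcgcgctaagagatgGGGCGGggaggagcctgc
Acadm: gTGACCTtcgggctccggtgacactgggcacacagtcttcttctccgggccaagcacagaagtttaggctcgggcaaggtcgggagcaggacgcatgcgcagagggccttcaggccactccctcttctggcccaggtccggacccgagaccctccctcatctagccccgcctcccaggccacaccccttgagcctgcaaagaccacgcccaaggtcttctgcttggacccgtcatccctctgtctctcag
Cpt1a: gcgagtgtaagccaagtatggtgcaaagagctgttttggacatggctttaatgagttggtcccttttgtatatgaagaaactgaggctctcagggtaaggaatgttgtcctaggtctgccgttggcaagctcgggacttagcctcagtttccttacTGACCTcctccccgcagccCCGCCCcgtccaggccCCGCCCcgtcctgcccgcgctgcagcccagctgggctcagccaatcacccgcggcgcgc
The Pnpla2 stretch held 2 GC boxes and the Acsl1 stretch 4, neither with an AGGTCA. Acadm held 1 AGGTCA and no GC box, and Cpt1a held 1 AGGTCA and 2 GC boxes. None of the 4 held CACGTG or AGGTCANAGGTCA, the direct repeat of the core element with any base between, which contains 2 copies of AGGTCA. Of 32851 promoter stretches of this length in the table, 14% held AGGTCA, 32.7% GGGCGG, 6.02% CACGTG and 0.0335% the direct repeat. A match describes letters only. Entries were used for 8 of the 10 genes.

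Pnpla2 gave 30.5, 17.5, 24.3, 39.4 and 12.3 CPM in the E4 ICM libraries and 109, 84.0, 144, 103 and 115 CPM in the D10 ICM libraries. In the TE it gave 33.4, 36.03, 47.3, 57.7 and 55.2 CPM at E4 and 145, 161, 339, 147 and 167 CPM at D10. Every D10 library lay above every E4 library of its tissue, and the third TE library at D10 stood far above the other 4. The log2 difference was 2.08 ± 0.31 (SE) in the ICM (edgeR, adjusted p = 3.56e-05) and 2.03 ± 0.28 in the TE (adjusted p = 9.49e-06).

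Acsl1 gave 6.10, 7.48, 6.63, 9.86 and 12.3 CPM in the E4 ICM and 36.2, 30.1, 10.7, 59.8 and 13.2 CPM in the D10 ICM. The E4 ICM values rest on 1 to 5 counts per library, 15 in all. In the TE it gave 38.9, 16.0, 23.6, 38.4 and 48.3 CPM at E4 and 233, 56.8, 203, 134 and 289 CPM at D10. The TE groups did not overlap, while in the ICM the lowest D10 library fell below the highest E4 library. Acsl1 rose by 1.99 ± 0.53 (log2) in the ICM (edgeR, adjusted p = 0.00781) and by 2.51 ± 0.40 in the TE (adjusted p = 5.46e-05). The ICM call rested on D10 ICM replicate 4, without which the difference was 1.46 (adjusted p = 0.069). That library also held the highest sum of blood markers, 124 CPM, and E4 TE replicate 1 reached 77.8 CPM. Of the 129 blood marker counts of the D10 ICM group, 127 were of Hba-a1. Any part of blood RNA in the Acsl1 call was not tested. The ICM call was also lost with limma voom (adjusted p = 0.0735), and the adjusted p ran from 5.80e-05 to 0.0878 over all alternatives.

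Cpt1a moved the other way. Its E4 ICM libraries gave 24.4, 42.4, 72.9, 65.1 and 73.8 CPM and its D10 ICM libraries 9.05, 7.92, 16.0, 16.0 and 0 CPM, where 0 allows up to 13.2 CPM. The TE gave 55.6, 40.0, 61.4, 69.2 and 89.7 CPM at E4 and 12.3, 11.8, 1.93, 8.37 and 2.65 CPM at D10. No D10 library reached the lowest E4 library of its tissue. Cpt1a fell by 2.38 ± 0.43 on the log2 scale in the ICM (edgeR, adjusted p = 0.000247) and by 2.97 ± 0.43 in the TE (adjusted p = 1.86e-05). The next enzyme of the shuttle, Cpt2, stayed between 5.56 and 61.5 CPM in all 20 libraries, with overlapping groups. Its log2 difference between the times was -0.04 ± 0.41 in the ICM (adjusted p = 0.958) and 0.14 ± 0.42 in the TE (adjusted p = 0.856).

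Among the genes of the oxidation cycle, Acadm gave 328, 260, 102, 194 and 124 CPM in the E4 TE and 467, 355, 520, 462 and 315 CPM in the D10 TE. Only the lowest D10 library lay below an E4 library. The log2 difference was 1.09 ± 0.28 (edgeR, adjusted p = 0.00652). In the ICM, Acadm ran from 90.3 to 159 CPM at E4 and from 99.5 to 336 CPM at D10, a log2 difference of 0.77 ± 0.30 that missed the threshold (adjusted p = 0.0647). It passed without E4 ICM replicate 1 (0.91, adjusted p = 0.0443), E4 TE replicate 1 (0.78, 0.0464) or 3 (0.79, 0.0393), or D10 ICM replicate 1 (0.94, 0.0257), and over all alternatives the adjusted p ran from 0.0257 to 0.515.

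Hadha gave 159, 112, 86.2, 108 and 119 CPM in the E4 ICM and 31.7, 42.8, 53.4, 85.7 and 61.7 CPM in the D10 ICM. The highest D10 library lay just under the lowest E4 library. Hadha fell by 0.98 ± 0.23 on the log2 scale in the ICM (edgeR, adjusted p = 0.00266), while in the TE all libraries lay between 94.8 and 125 CPM, with a difference of -0.08 ± 0.21 (adjusted p = 0.839). The 3′ end of Hadha shares 75 bases with the 3′ end of Garem2 on the opposite strand, which had 1 count in all libraries together, and whether counting used strand is not given in the sources used here. Acadl, the long-chain acyl-CoA dehydrogenase, had log2 differences of 0.24 ± 0.24 in the ICM (adjusted p = 0.495) and -0.38 ± 0.23 in the TE (adjusted p = 0.243).

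Neither droplet protein passed the test between the times. Plin2 gave log2 differences of -0.43 ± 0.28 in the ICM (adjusted p = 0.296) and -0.48 ± 0.26 in the TE (adjusted p = 0.198). Cidea gave 0.52 ± 0.39 in the TE (adjusted p = 0.368), and in the ICM it had 5 counts at E4 and 6 at D10 over 5 libraries each, a ratio of pooled counts of 0.811 (exact 95% interval 0.206 to 3.36, for counting error only). Lpl gave -0.40 ± 0.61 in the ICM (adjusted p = 0.685) and 1.43 ± 0.87 in the TE (adjusted p = 0.257).

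The difference of the change between the tissues was tested for each gene. By edgeR 0 of 10 genes were called in the direction of a higher ICM change, beside 3.15% of all genes, and 0 in the direction of a lower one, beside 1.83%. At an unadjusted p under 0.05 the counts were 0 and 1, and DESeq2 and limma voom called 0 in either direction. The gene at the unadjusted threshold was Hadha, with a difference of changes of -0.90 ± 0.31 (adjusted p = 0.0951). It passed without D10 ICM replicate 4 (-1.19, adjusted p = 0.0223), and the adjusted p ran from 0.0223 to 0.647 over its alternatives. For Pnpla2 the difference of changes was 0.05 ± 0.38, for Acsl1 -0.52 ± 0.75 and for Cpt1a 0.58 ± 0.62.

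**Figure D2:**
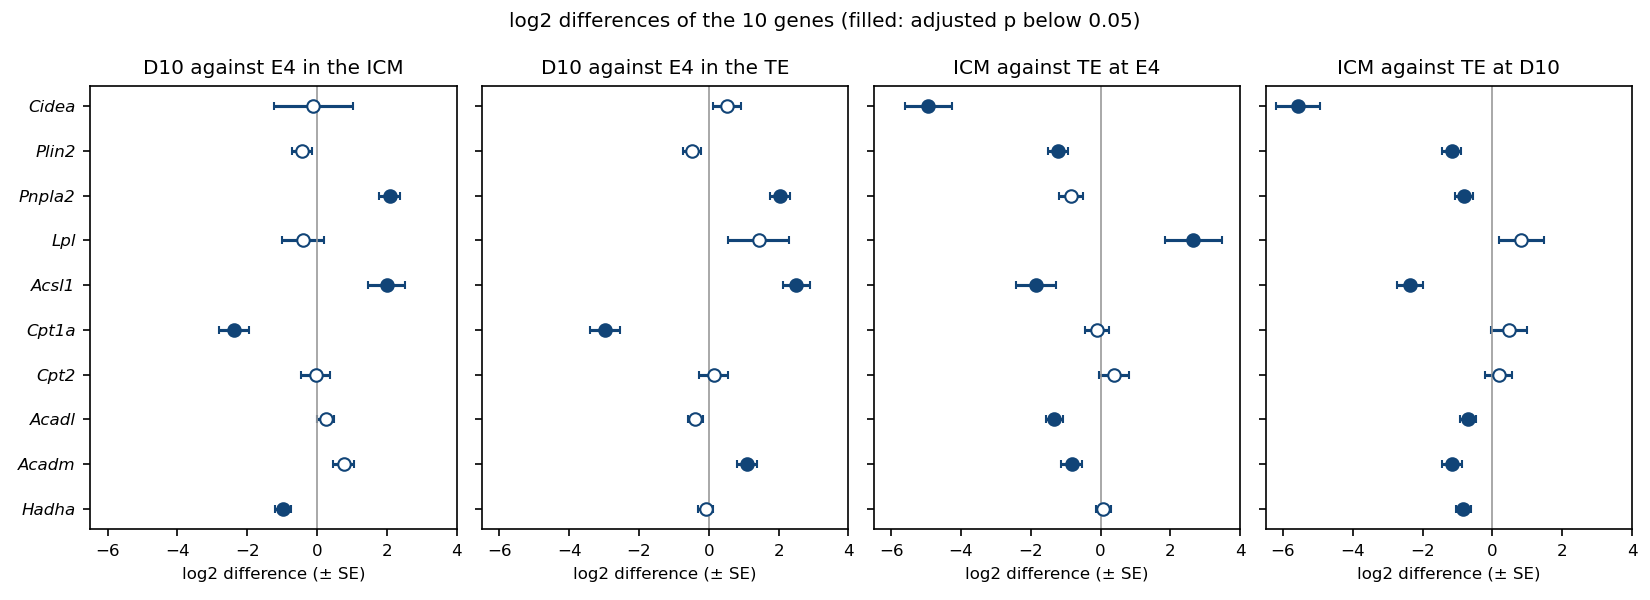
Log2 differences ± SE (horizontal axis) of the 10 genes (vertical axis) in 4 comparisons; filled points had an adjusted p below 0.05. Pnpla2 and Acsl1 are filled on the right and Cpt1a on the left in both time panels, and most filled points of the tissue panels lie on the left, towards a higher level in the TE.

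Between the tissues, most of the genes that differed were higher in the TE. Cidea differed most of the 10 genes, with 5 and 6 counts in all ICM libraries together at E4 and D10 and 158 and 365 in the TE. At E4, Plin2, Acsl1, Acadl and Acadm were also lower in the ICM, and Lpl alone of the 10 genes was higher there. At D10, Cidea, Plin2, Pnpla2, Acsl1, Acadl, Acadm and Hadha were lower in the ICM. This made 5 of 10 genes lower in the ICM at E4, beside 15.4% of all genes, and 1 higher, beside 15.8%. At D10, 7 were lower, beside 12.6% of all genes, and by edgeR 0 were higher, beside 12.9%. For those 0, the count at an unadjusted p under 0.05 and the counts of DESeq2 and limma voom were also 0. Because the 10 genes were chosen with earlier results of these data known, the shares describe these genes only. The median log2 difference (ICM minus TE) of the 10 genes was -0.84 at E4 and -0.82 at D10, and that of all genes tested was 0.0346 and 0.0136. Thinning lost the calls of Lpl and Acadm at E4 (adjusted p = 0.273 and 0.572) and of Pnpla2, Acadm and Hadha at D10 (0.201, 0.183 and 0.191), again the highest values over all alternatives.

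Cidea gave 0, 0, 0, 5.91 and 8.21 CPM in the E4 ICM, where the 3 libraries at 0 allow up to 18.3, 7.48 and 6.63 CPM. In the E4 TE it gave 33.4, 24.0, 113, 142 and 166 CPM. Every TE library lay above every ICM library. The D10 ICM gave 0, 3.17, 0, 2.99 and 4.41 CPM (the libraries at 0 allow up to 13.6 and 16.0 CPM) and the D10 TE 214, 123, 192, 90.4 and 71.5 CPM, again without overlap. Pooled counts were 158 in the TE against 5 in the ICM at E4, a ratio of 32.5 (exact 95% interval 13.6 to 101) after scaling by total counts, and 365 against 6 at D10, a ratio of 53 (24.1 to 145). The fitted log2 difference (ICM minus TE) was -4.94 ± 0.67 at E4 (edgeR, adjusted p = 4.56e-06) and -5.57 ± 0.63 at D10 (adjusted p = 3.63e-07).

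The Cidea difference lay beyond that of every trophectoderm marker tested. Of 15 markers 13 were tested; at E4 10 were lower in the ICM, and the 13 ran from -2.80 (Dppa1) to -0.16 (Elf5), with a median log2 difference of -1.78. At D10 11 were lower and 1 was higher, and the 13 ran from -2.33 (Krt7) to 1.20 (Elf5), with a median of -1.09. The part of the trophectoderm marker counts of the ICM libraries in the tissue differences of the 10 genes was not tested.

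**Figure D3:**
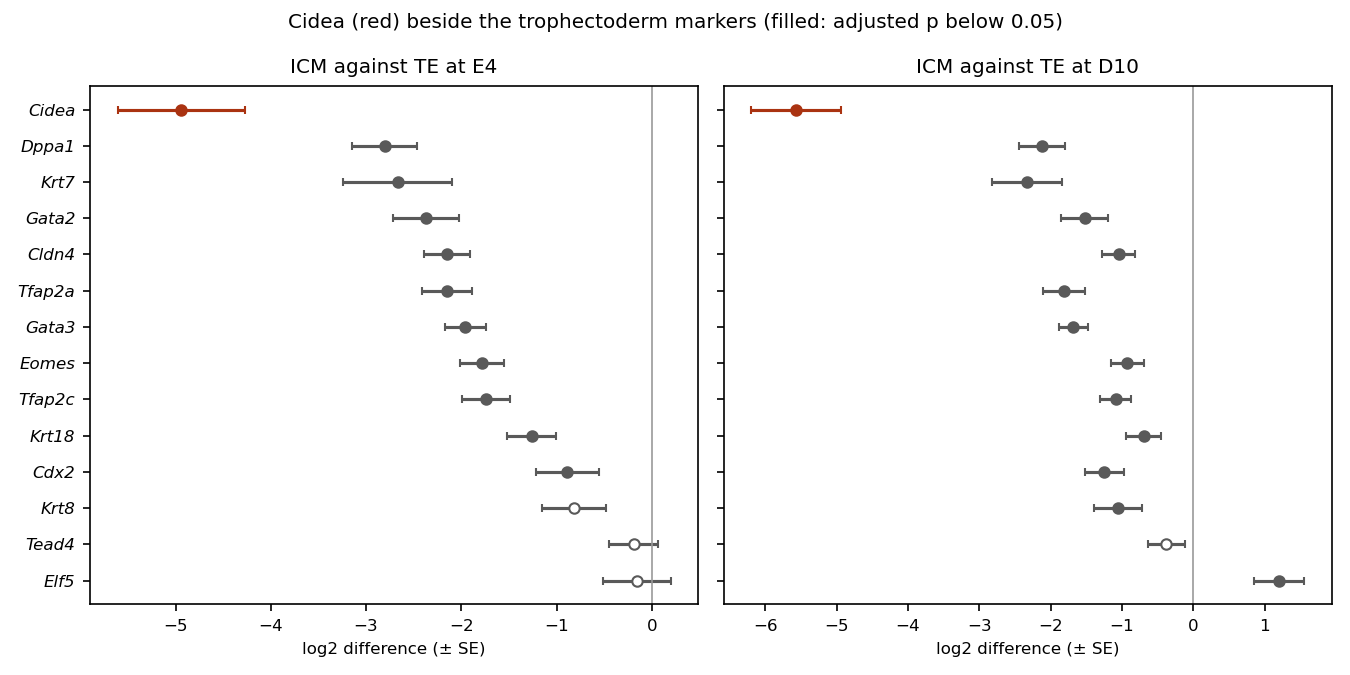
Log2 difference of ICM against TE ± SE (horizontal axis) for Cidea in red and 13 trophectoderm markers in grey (vertical axis) at E4 and at D10; filled points had an adjusted p below 0.05. Cidea lies at -4.94 and -5.57, left of every marker in both panels.

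Plin2 gave 287, 157, 97.2, 101 and 201 CPM in the E4 ICM and 272, 272, 362, 546 and 442 CPM in the E4 TE. At D10 it gave 81.5, 140, 123, 133 and 115 CPM in the ICM and 233, 190, 395, 288 and 254 CPM in the TE. The D10 tissues did not overlap, and at E4 a single ICM library, from a litter with a zona, reached into the TE range. The log2 differences were -1.22 ± 0.28 at E4 (edgeR, adjusted p = 0.0014) and -1.17 ± 0.27 at D10 (adjusted p = 0.00233).

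Acsl1, with the values given above, was lower in the ICM by -1.85 ± 0.56 at E4 (edgeR, adjusted p = 0.0136) and by -2.37 ± 0.37 at D10 (adjusted p = 2.83e-05). The highest D10 ICM library lay just above the lowest D10 TE library. At E4 the tissues did not overlap, yet the call was lost with limma voom (adjusted p = 0.105) and without the litters with a zona (0.0582), in a range of 0.000525 to 0.105. Pnpla2 differed by -0.81 ± 0.25 at D10 (adjusted p = 0.0187), with the lowest TE library just above the highest ICM library. That call was lost without D10 ICM replicate 2 (-0.70, adjusted p = 0.067) and without D10 TE replicate 3 (-0.50, 0.124), in a range of 0.0102 to 0.201. At E4 the Pnpla2 difference was -0.86 ± 0.34 (adjusted p = 0.0552), and with litter as a block it was -0.85 ± 0.30 (adjusted p = 0.031). It passed the threshold in 13 of 29 alternatives, with adjusted p from 0.0167 (without E4 ICM replicate 4, -1.19) to 0.451.

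Acadl gave 311, 274, 161, 314 and 246 CPM in the E4 ICM and 834, 605, 612, 738 and 497 CPM in the E4 TE. The groups did not overlap, and the log2 difference was -1.32 ± 0.24 (edgeR, adjusted p = 0.000128). At D10 it gave 226, 384, 465, 235 and 238 CPM in the ICM and 475, 492, 627, 342 and 585 CPM in the TE. Here the lowest TE library lay below 2 ICM libraries, and the difference was -0.70 ± 0.23 (adjusted p = 0.0271). The D10 call was lost when any of the D10 libraries ICM 1, ICM 4, ICM 5, TE 3 or TE 5 was left out, with differences of -0.60 to -0.63 and adjusted p of 0.0712 to 0.0823, in a range of 0.00651 to 0.0823 over all alternatives.

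Acadm was lower in the ICM by -1.15 ± 0.28 at D10 (edgeR, adjusted p = 0.00326) and by -0.82 ± 0.30 at E4 (adjusted p = 0.0398), with overlapping groups at both times. The E4 call was lost when any of the E4 libraries ICM 2 to 5 or TE 1, 2 or 4 was left out, with differences of -0.63 to -0.88 and adjusted p of 0.0522 to 0.12, in a range of 0.0104 to 0.572 over all alternatives. Hadha gave 102, 108, 94.8, 109 and 103 CPM in the D10 TE, above every D10 ICM library. Its log2 difference was -0.83 ± 0.22 at D10 (adjusted p = 0.00658) and 0.07 ± 0.22 at E4 (adjusted p = 0.826). For Cpt1a and Cpt2 the tissue differences missed the threshold at both times, at -0.10 ± 0.36 and 0.48 ± 0.51 for Cpt1a and 0.37 ± 0.43 and 0.19 ± 0.39 for Cpt2.

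Lpl was sparse. It gave 6.10, 2.49, 57.4, 65.1 and 28.7 CPM in the E4 ICM and 0, 8.01, 2.36, 5.77 and 13.8 CPM in the E4 TE, where 0 allows up to 16.7 CPM. The 3 high ICM libraries were those from litters without a zona, and the other 2 lay within the TE range. Its log2 difference of 2.66 ± 0.82 favoured the ICM (edgeR, adjusted p = 0.0144). The call was lost without E4 ICM replicate 4 (2.18, adjusted p = 0.0643) and with limma voom (2.05, 0.156), in a range of 7.10e-05 to 0.273. At D10 it gave 0, 26.9, 42.7, 22.9 and 44.1 CPM in the ICM and 12.3, 11.8, 1.93, 33.5 and 13.2 CPM in the TE, with overlapping groups and a difference of 0.83 ± 0.64 (adjusted p = 0.375).

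At E4, 2 litters were listed with a zona pellucida, the coat of the early embryo, and 3 without. In the TE, Cidea, Plin2, Pnpla2, Cpt1a and Cpt2 were higher in all 3 libraries without a zona than in both with one, and Acadm was lower in all 3. These 5 of 10 genes above stand beside 12.5% of all genes, and the 1 below beside 10.6%. In the ICM, 2 of 10 genes, Cpt1a and Lpl, were above, beside 12% of all genes, and 0 were below, beside 8.97%. With 2 libraries against 3 this is a description. All D10 litters lacked a zona. Without the 2 litters the Cpt1a differences between the times were -2.65 ± 0.44 in the ICM (adjusted p = 0.000586) and -3.19 ± 0.45 in the TE (adjusted p = 5.81e-05). Those of Pnpla2 were 2.01 and 1.82 (adjusted p = 0.00128 and 0.000974), and those of Acsl1 1.91 and 2.35 (adjusted p = 0.0486 and 0.00243). The E4 Acadm difference between tissues was then -0.49 ± 0.36 (adjusted p = 0.354), and the Plin2 difference -1.82 ± 0.32 (adjusted p = 0.000373).

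Around the 10 genes, 135 other genes of droplets, lipolysis, fatty acid handling and oxidation were listed by role. Of these 119 had a row and 73 were tested. Between E4 and D10, 15 of the 73 were higher and 6 lower in the ICM, beside 13.7% and 9.97% of all genes, and 17 were higher and 6 lower in the TE, beside 11.9% and 9.89%. The 73 had a median log2 difference of 0.36 in the ICM and 0.01 in the TE, beside -0.00306 and 0.0206 for all genes tested. Called higher in both tissues were 12, or 80% of the ICM calls and 70.6% of the TE calls, and over all genes tested the 403 shared calls were 42.4% and 48.8%. Called lower in both was 1, Slc25a20, or 16.7% of either set, where over all genes the 202 shared calls were 29.2% and 29.4%. Between tissues 5 were higher and 19 lower in the ICM at E4, beside 15.8% and 15.4% of all genes, and 5 higher and 16 lower at D10, beside 12.9% and 12.6%. This list was also made with earlier results of these data known, so its shares are descriptions.

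Slc25a20 encodes the carrier that takes acylcarnitine across the inner mitochondrial membrane, the step after Cpt1a. It gave 79.3, 107, 37.6, 41.4 and 65.6 CPM in the E4 ICM and 18.1, 22.2, 10.7, 19.9 and 17.6 CPM in the D10 ICM. The TE gave 44.5, 60.1, 33.1, 44.2 and 55.2 CPM at E4 and 7.0, 3.92, 5.80, 8.37 and 0 CPM at D10. As with Cpt1a, no D10 library reached the lowest E4 library of its tissue. Slc25a20 fell by 1.77 ± 0.35 in the ICM (edgeR, adjusted p = 0.000786) and by 3.03 ± 0.42 in the TE (adjusted p = 1.04e-05). Crot, the peroxisomal carnitine octanoyltransferase, rose by 2.28 ± 0.33 in the ICM (adjusted p = 2.77e-05) and by 1.33 ± 0.29 in the TE (adjusted p = 0.00165). With thinned libraries the calls of Slc25a20 in the ICM (adjusted p = 0.164) and of Crot in the TE (0.0621) were lost, the highest values over their alternatives. The carnitine importer Slc22a5 was lower in ICM libraries, by -4.46 ± 0.44 at E4 (adjusted p = 8.99e-08) and -2.98 ± 0.38 at D10 (adjusted p = 1.82e-06).

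Of 14 further genes of mitochondrial oxidation tested, 5 were higher at D10 than at E4 in the ICM, beside 13.7% of all genes. In the TE 5 were higher and 1 lower at D10 than at E4, beside 11.9% and 9.89%. Hsd17b10, a 3-hydroxyacyl-CoA dehydrogenase, rose by 1.74 ± 0.27 in the ICM (edgeR, adjusted p = 5.41e-05) and by 0.95 ± 0.27 in the TE (adjusted p = 0.0118), a call lost with thinned libraries (adjusted p = 0.657, the highest over its alternatives, where the difference went down to 0.452). Hadhb, the partner subunit of Hadha, gave 0.29 ± 0.20 in the ICM (adjusted p = 0.313) and rose by 0.70 ± 0.20 in the TE (adjusted p = 0.0125). Of 9 peroxisomal genes, Acox2, an acyl-CoA oxidase, was higher in both tissues: 0 counts in the E4 ICM against 47 at D10, at least 10.6-fold higher against 3 counts over the group, and 1 count in the E4 TE against 497, a ratio of pooled counts of 285 (exact 95% interval 50.9 to 1.13e+04). Oxct1, which activates ketone bodies, rose by 1.74 ± 0.35 in the ICM (adjusted p = 0.000854) and by 1.27 ± 0.33 in the TE (adjusted p = 0.00645), a call lost without the litters with a zona (0.0733, the highest over its alternatives).

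Of 7 droplet coat and formation genes tested, Bscl2 (seipin, which acts where droplets form) rose by 1.95 ± 0.33 in the ICM (edgeR, adjusted p = 0.000155) and by 2.21 ± 0.33 in the TE (adjusted p = 2.86e-05). Hilpda, whose protein inhibits the Pnpla2 lipase, fell by 1.47 ± 0.29 in the TE (adjusted p = 0.000626), while Plin3, another perilipin, gave 0.39 ± 0.21 in the ICM (adjusted p = 0.176) and 0.02 ± 0.20 in the TE (adjusted p = 0.974). Of 4 lipase and cofactor genes, Abhd5, the co-activator of the Pnpla2 lipase, gave 0.90 ± 0.50 in the ICM (adjusted p = 0.203) and rose by 1.41 ± 0.47 in the TE (adjusted p = 0.033), a call that was lost in 11 of 27 alternatives. Mgll, the monoacylglycerol lipase, fell by 2.17 ± 0.57 in the ICM (adjusted p = 0.00746), and Pnpla8, a phospholipase of the same family as Pnpla2, fell by 0.99 ± 0.26 in the TE (adjusted p = 0.00773), a call lost with thinned libraries and without the litters with a zona, at an adjusted p of up to 0.183. Of 9 genes of triacylglycerol synthesis, 2 were higher and 3 lower in the ICM, beside 13.7% and 9.97% of all genes. In the TE 2 were higher, beside 11.9%. Agpat4, an acylglycerophosphate acyltransferase, rose by 2.07 ± 0.33 in the ICM (adjusted p = 6.85e-05) and by 1.59 ± 0.31 in the TE (adjusted p = 0.000568). Of 14 genes of uptake, binding and activation, 2 were higher and 1 lower in the ICM, beside 13.7% and 9.97% of all genes. In the TE 3 were higher and 1 lower, beside 11.9% and 9.89%. Acot1, an acyl-CoA thioesterase with near-identical paralogs whose reads counting may split, had 3 counts in the E4 ICM against 79 at D10, a ratio of pooled counts of 17.8 (exact 95% interval 5.88 to 88.2), and rose by 2.45 ± 0.53 in the TE (adjusted p = 0.0015). Fabp5, a fatty acid binding protein, fell by 3.25 ± 0.67 in the ICM (adjusted p = 0.000963), and Acsl3, a synthetase found at droplets, fell by 1.47 ± 0.31 in the TE (adjusted p = 0.00131). The Fabp5 fall rests on few counts, 74 in the E4 ICM and 10 in the D10 ICM over 5 libraries each. With thinned libraries the ICM calls of Bscl2 (adjusted p = 0.573), Fabp5 (0.0614) and Mgll (0.0915) and the TE calls of Hilpda (0.191), Acot1 (0.195) and Acsl3 (0.149) were lost, each the highest adjusted p over its alternatives. The ICM difference of Bscl2 went down to 0.835 over its alternatives.

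Of the PPAR nuclear receptor genes, which control many genes of lipid use, Ppard alone had enough counts to be tested. It gave log2 differences between the times of -0.09 ± 0.41 in the ICM (adjusted p = 0.911) and -0.70 ± 0.34 in the TE (adjusted p = 0.145), and was lower in the ICM at E4 by -1.23 ± 0.38 (adjusted p = 0.0143). Pparg had 3 counts in the D10 ICM and 0 in the other groups, and no row named Ppara was found. Lipe, the hormone-sensitive lipase gene, had 5 to 8 counts per group and Acadvl, the very long-chain acyl-CoA dehydrogenase gene, 0 to 4, so neither was tested.

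**Figure D4:**
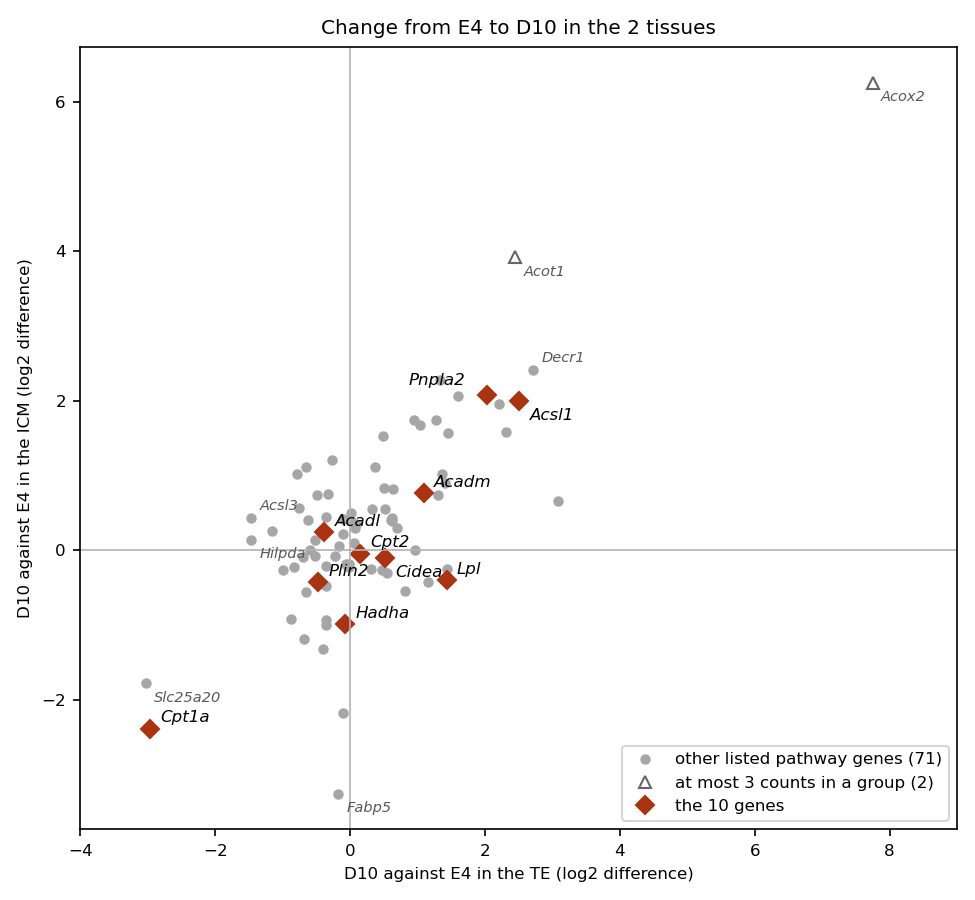
Log2 difference between D10 and E4 in the TE (horizontal axis) and the ICM (vertical axis) for the 10 genes (red diamonds) and 71 other listed genes (grey circles); open triangles are 2 genes with at most 3 counts in a group, whose fitted values depend on the prior count. Pnpla2 and Acsl1 lie at the upper right, and Cpt1a lies beside Slc25a20 at the lower left.

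By pattern over the 20 libraries, genes close to Cidea were Tmem86a and Tmcc3, with root mean square differences of centred log2 CPM of 0.889 and 0.947, where the median over all genes tested was 2.17. Both were high in the TE: Tmem86a had a mean of 12.8 and 10.5 CPM in the ICM and 220 and 181 CPM in the TE at E4 and D10. Closest to Plin2 were Etfb (0.348), Cttn (0.365) and Stk24 (0.392), beside a median of 0.954. Closest to Cpt1a were Mars1 (0.544), Erh (0.637) and Ckb (0.651), beside a median of 1.43. Mars1 had mean levels of 137 and 173 CPM in the E4 ICM and TE and 36.3 and 31 CPM at D10. Closest to Lpl were Sdf2l1 (0.833), Uba6 (0.85) and Gmds (0.878), beside a median of 1.31. These are descriptions, and the points share libraries and depth.

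On GRCm38 with GENCODE M21, in which 21442 of the 21470 gene identifiers were found, the genes other than Cidea lie at chr4:86648386-86670060 (Plin2), chr7:141455198-141460743 (Pnpla2), chr8:68880491-68907448 (Lpl), chr8:46471037-46536051 (Acsl1), chr19:3322334-3385733 (Cpt1a), chr4:107903981-107923610 (Cpt2), chr1:66830839-66863277 (Acadl), chr3:153922357-153944632 (Acadm) and chr5:30118304-30155162 (Hadha). Acadl contains the processed pseudogene Gm15793, which had 1 to 6 counts per group, and overlaps the small RNA gene Gm27934 on the opposite strand. Acsl1 overlaps Gm45244 and Cidea overlaps B430212C06Rik over 500 bases, both on the opposite strand and away from the 3′ end. B430212C06Rik had 3 counts in the E4 ICM and 0 in the other groups. For Plin2, Pnpla2, Lpl, Cpt1a, Cpt2 and Acadm the annotation held no overlapping gene.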

How the data were processed

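Per the submitters' processing notes, the tools were featureCounts 2.0.1, HISAT2 2.2.1, Trim Galore 0.6.7 and UMI-tools, listed with no role, and the builds GRCm38 and GRCh38. The authors deposited raw counts per gene and library, and per the labels' protocols the libraries were made by BRB-seq, with barcoded oligo-dT priming and a 10-base molecular identifier. Whether counts were collapsed by identifier or used strand is not given in the sources used here. Intervals were computed from counts pooled over the libraries of a group, so they leave out variation among libraries. They would also be too narrow if amplification copies were counted. Litter and zona come from the deposited barcode list. Within a time, same-numbered ICM and TE libraries share a litter, and their deviations from group means correlated at 0.177 on average at E4 and 0.168 at D10; no litter spans both times. No pair of libraries in a group matched within counting noise (lowest chi-square per degree of freedom 3.07).

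Counts were tested in R 4.3.3 with edgeR 4.0.16 (quasi-likelihood), TMM scaling and filterByExpr at a minimum count of 10, in 1 fit of 20 libraries. P-values were adjusted by Benjamini-Hochberg over 6943 genes, with a threshold of 0.05. The SE beside a log2 difference was derived from the edgeR test, as the absolute log2 difference over the square root of the F statistic. The test was checked on counts simulated without litter or pool effects, so the check does not cover such effects. Alternatives were other scaling, DESeq2 1.42.0, voom of limma 3.58.1, no filter, a minimum count of 20, only the groups compared, thinning, a litter block, no zona litters and leaving out each library. Intervals are Clopper-Pearson at 95%. No per-length values were computed.

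The members and lists were chosen with earlier results of these data known. Named beside the 10 genes were, per comparison, the 2 listed genes of each role with the smallest adjusted p under the threshold, and always Plin3, Abhd5, Lipe, Slc25a20, Hadhb, Acadvl, Ppara, Ppard and Pparg. Of these, the report gives those that bear on the 10 genes, and some are not reported here. Similar patterns were ranked over 20 libraries with a prior count of 2. Lists of blood and uterus markers were also summed; the uterus sum stayed at or below 14.0 CPM. Python 3.11.15 and matplotlib 3.10.9 drew the figures.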

Additional observations from a re-analysis of the deposited data

Results flagged for a closer look

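In the D10 TE, replicate 3 had 338.5 CPM of Pnpla2, and the nearest of the other 4 libraries had 166.9 CPM. The gap was 0.888 of the range of the 5 values, above Dixon's critical value of 0.71 for 5 samples. Of 40 groups of 5 values (10 genes in 4 groups) this was the only one past its critical value, where chance puts about 1 in 20 past it. Without this library Pnpla2 differed between the tissues at D10 by -0.50 (edgeR, adjusted p = 0.124), in a range of 0.0102 to 0.201 over the alternatives.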

How the results depend on the processing

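Of 1399 values of the 10 genes under alternatives, 1307 kept their direction and their side of the threshold, 31 lost a call, 21 gained one and 40 turned direction; no called value turned. The cause of the changes below was not tested, except that thinning leaves fewer counts and that some fits left genes below the filter. Among called values, fits of only the groups compared left out Acsl1 and Cpt1a (ICM) and Cidea, Lpl and Acsl1 (E4). The fit with a minimum count of 20 left out Lpl. Values that were not called were also missing under some alternatives. Over time in the ICM, Cidea had values in 27 alternatives and Lpl and Cpt2 in 26, where Plin2 had 28. Depth limits the low genes: Cidea and Lpl in 1 tissue, Acsl1 in the E4 ICM and Cpt1a at D10 rest on a few counts per library. Litters and zona differ between E4 and D10, and each group is 1 amplification pool.

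With libraries thinned to 144276 counts, calls higher and lower over time in the ICM were 1 and 1 of the 10 genes, 9 and 0 of the other listed genes and 315 and 147 of all genes. In the TE they were 6 and 2 of the other listed genes and 207 and 221 of all genes. Between tissues at E4 they were 0 higher among the 10 genes, 2 and 10 among the listed genes and 346 and 420 among all genes. At D10 they were 4 lower among the 10 genes, 1 and 7 among the listed genes and 334 and 279 among all genes. For the difference of changes they were 0 and 0 of the listed genes and 40 and 9 of all genes. Limma voom called 1 of the 10 genes higher over time in the ICM, and 0 higher and 3 lower between tissues at E4. Fits of only the groups compared gave 1 of the 10 genes and 3 listed genes lower over time in the ICM, 0 and 3 of the 10 genes and 3 listed genes higher at E4, and 2 listed genes higher at D10. With a minimum count of 20, under which Lpl fell below the filter, 0 of the 10 genes and 3 listed genes were higher at E4. Without a filter, 9 listed genes and 1474 genes in all were higher in the ICM at D10, and the difference of changes called 4 and 3 listed genes and 352 genes in all higher. DESeq2 called 8 listed genes higher at D10. Without the litters with a zona, 3 listed genes and 379 genes in all were lower over time in the ICM, 3 of the 10 genes were lower and 3 listed genes higher at E4, and the difference of changes called 0 and 0 listed genes and 144 and 54 genes in all. Per role, counts of listed genes without a filter moved by over 1.5 times in 19 of 90 cases.

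With litter as a replicate block, the difference of changes called 4 and 3 listed genes, and Pnpla2 passed between tissues at E4 (-0.85, adjusted p = 0.031). The block changed no other call of the 10 genes.

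Leaving out 1 library at a time gave 1 to 3 of the 10 genes higher over time in the ICM, 0 to 1 higher between tissues at E4, 0 to 1 in the lower difference of changes, 3 to 6 listed genes lower over time in the ICM, 3 to 7 higher at E4, 1 to 4 in the higher difference of changes, and 83 to 128 of all genes in the lower one. Counts moved by over 1.5 times without D10 ICM replicate 4 (1 of the 10 genes higher over time in the ICM and 1 in the lower difference of changes), E4 ICM replicate 4 (0 of the 10 genes and 3 listed genes higher at E4), D10 ICM replicate 2 (3 listed genes lower in the ICM over time and 83 of all genes in the lower difference of changes), E4 TE replicate 2 or D10 ICM replicate 5 (4 in the higher difference of changes) and E4 TE replicate 4 or D10 ICM replicate 4 (1).

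Directions turned only for log2 differences that missed the threshold. Over time in the ICM, voom turned Cidea to 0.17 and Cpt2 to 0.19. Without the litters with a zona, Cidea over time in the TE turned to -0.013, Cpt2 there to -0.28, Hadha between tissues at E4 to -0.12, and Cpt2 in the difference of changes to 0.14. Thinning turned Cpt2 between tissues at D10 to -0.46 and, in the difference of changes, Plin2 to -0.088 and Pnpla2 to -0.20, and voom turned Cpt2 there to 0.080. Leaving out 1 library at a time gave, over time in the ICM, -0.47 to 0.61 for Cidea, -0.69 to 0.054 for Lpl and -0.40 to 0.32 for Cpt2, and over time in the TE -0.056 to 0.42 for Cpt2. Between tissues it gave -0.27 to 0.0052 for Cpt1a, -0.0021 to 0.64 for Cpt2 and -0.061 to 0.14 for Hadha at E4, and -0.16 to 0.37 for Cpt2 at D10. For the difference of changes it gave -0.97 to 0.11 for Cidea, -0.092 to 0.34 for Plin2, -0.054 to 0.39 for Pnpla2 and -0.52 to 0.19 for Cpt2.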
